A study of Rattus norvegicus with 6 samples.

Results

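The cytochrome P450 4A (CYP4A) omega-hydroxylases of rat liver were followed across diet and ribosome loading. All loci with the symbol Cyp4a1, Cyp4a2 or Cyp4a8 were taken, which gave 4 loci of 33022, because Cyp4a2 stood on 2 loci that were kept apart. The genes were chosen by name with the differences of their levels between these 6 libraries already known, so the values below are a description and carry no test. For 2 weeks, male obesity-prone Sprague Dawley rats ate the control diet TD 08485 (CD) or the Western diet TD 88137 (WD), which is rich in milk fat, sucrose and cholesterol, before an overnight fast and refeeding. Both groups were of the same strain, and the livers of both were taken after 1 h of refeeding, each group on its own diet. The diet was thus the labelled difference, and effects of the last meal and of the 2 weeks cannot be told apart. From each diet, total liver RNA and RNA from a light and a heavy sucrose gradient fraction were sequenced. The light fraction held mRNAs bound to 3 or fewer ribosomes, and the heavy fraction those bound to 4 or more. RNA of 3 rats was pooled for each library, so each diet and RNA is 1 library, the spread between rats is not known, and a ratio compares pools rather than diets.

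CYP4A enzymes are microsomal P450s that take electrons from cytochrome P450 reductase and add a hydroxyl group to the terminal (omega) carbon of fatty acids. Their substrates include lauric acid and arachidonic acid, whose omega-hydroxylated product is 20-HETE. Alcohol and aldehyde dehydrogenases carry the hydroxylated acids on to dicarboxylic acids, which are shortened in peroxisomes. In liver and kidney the genes are classical targets of the nuclear receptor PPARα, which is activated by fatty acids and by fasting.

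The 4 loci lay on chromosome 5 of the Rnor_6.0 assembly. Cyp4a8 spanned 133978953 to 134008255. The distal Cyp4a2 locus spanned 134196750 to 134207863, and the other Cyp4a2 locus, called the locus beside Cyp4a1 here, spanned 134468689 to 134484839. Cyp4a1 followed at 134492755 to 134507159, 7915 bases further on, whereas 260825 bases separated the Cyp4a2 loci. In the RefSeq annotation of a newer assembly, GRCr8, the same stretch between Cyp4x1 and Cyp4b1 held 5 protein-coding Cyp4a genes in the order Cyp4a8, Cyp4a2, Cyp4a2l1, Cyp4a3 and Cyp4a1, together with 3 Cyp4a pseudogenes. No deposited locus carried the symbol Cyp4a3 or Cyp4a2l1. The gene order also differed between the assemblies: Faah and Nsun4 lay between the deposited Cyp4a2 loci and were not in this stretch of GRCr8. The gene next to Cyp4a1 is Cyp4a3 in GRCr8 and a locus named Cyp4a2 in the deposited file, so the name of the locus beside Cyp4a1 is uncertain and its position is used instead.

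The sequences just upstream of these genes show how alike the promoters of the copies are. RefSeq promoters in GRCr8, taken from 250 bases before to 50 bases after each start, were held for 4 of the 5 genes. Aligned bases of Cyp4a2 and Cyp4a2l1 were identical at 100% of 264 positions, and those of Cyp4a2 and Cyp4a3 at 96.3% of 295, whereas Cyp4a8 was identical to the others at 61% to 61.9%. The hexamer AGGTCA, the half-site that PPARα and related nuclear receptors recognise, was searched on both strands. It occurred in the promoters of Cyp4a2, Cyp4a2l1 and Cyp4a3 and in 16.2% of 33469 promoters, so its presence is common. The exact direct repeat of this hexamer with 1 base between the copies (DR1) was found in 0.0538% of promoters and in none of these 4. Inexact repeats and sequence further upstream were not searched, so the absence of a PPARα element cannot be read from this. The 30 bases around the hexamer are shown to let the copies be compared, with the hexamer in capitals and each sequence read 5′ to 3′ on the minus strand of GRCr8, at chr5:134170996-134171025, chr5:134257878-134257907 and chr5:134352324-134352353 in turn.
Cyp4a2: ctttggagtctgAGGTCActccctgtcttt
Cyp4a2l1: ctttggagtctgAGGTCActccctgtcttt
Cyp4a3: ctttggagtctgAGGTCAgtctctgttttt
The first pair was identical at 30 of 30 bases, and Cyp4a3 matched them at 27 of 30. A match to a hexamer is a description of letters and not a binding site.

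Levels are given in FPKM as the authors deposited them (fragments scaled to transcript length and to mapped fragments), which are per length and can be set side by side between genes. The distal Cyp4a2 locus measured 1072 FPKM in total RNA of CD and 913 in that of WD, 1177 and 819 in the light fraction, and 5186 and 3980 in the heavy fraction. It ranked between 19 and 84 among the loci in every library, and the heavy fraction held by far the higher values on both diets. The locus beside Cyp4a1 measured 1002 FPKM in total RNA of CD and 838 in that of WD, 1374 and 299 in the light fraction, and 1753 and 1296 in the heavy fraction. Its WD light value stood below its other 5 values. Cyp4a1, which encodes the classical clofibrate-inducible lauric acid hydroxylase, measured 403 FPKM in total RNA of CD and 204 in that of WD, 310 and 107 in the light fraction, and 448 and 211 in the heavy fraction. Each WD value of Cyp4a1 was lower than each of its CD values. Cyp4a8 was barely detected, at 1.54 and 0.804 FPKM in total RNA, 0.562 and 0.517 in the light fraction, and 0.604 and 0.59 in the heavy fraction. Those values correspond to between 1 and 4 inferred fragments per library, and no difference between diets was detectable for Cyp4a8 at this depth.

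**Figure D1:**
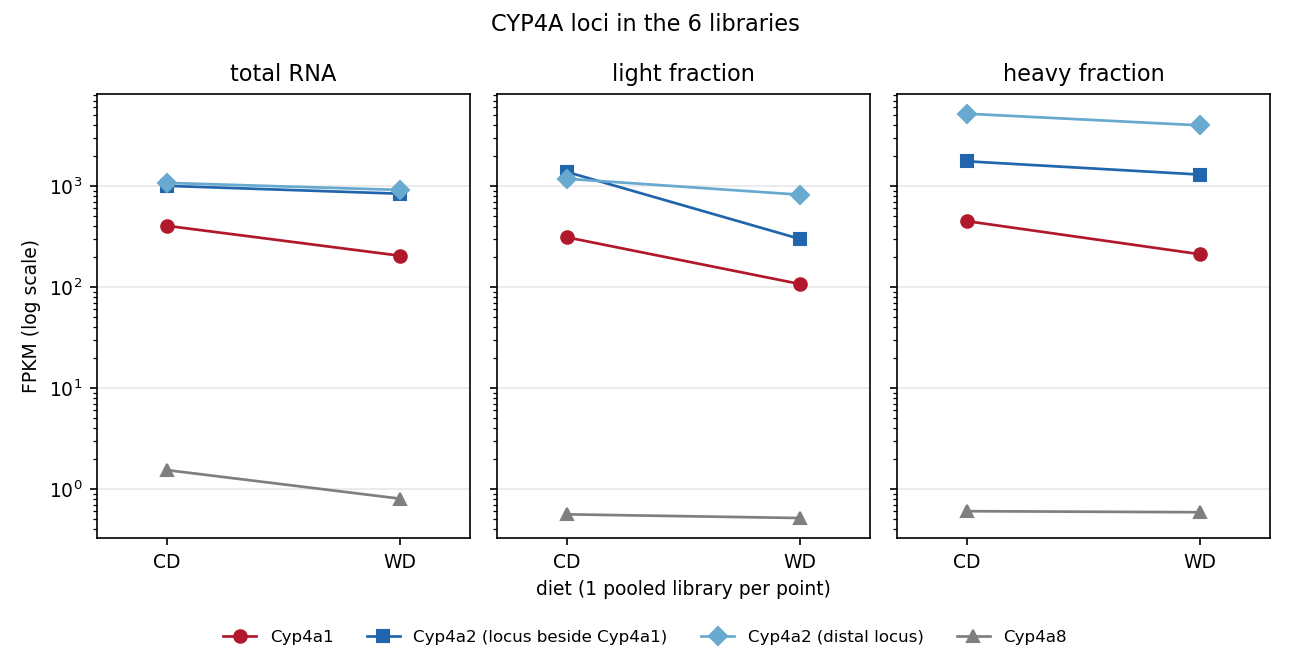
FPKM (log scale) of the 4 CYP4A loci in total RNA, the light fraction and the heavy fraction, with a line from CD to WD. Each point is 1 library of pooled RNA and has no error bar. Every line slopes down, least for Cyp4a8 in the fractions, and the steepest is the locus beside Cyp4a1 in the light fraction, from 1374 to 299 FPKM.

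In the total RNA of CD rats, the order from high to low was the distal Cyp4a2 locus, the locus beside Cyp4a1, Cyp4a1 and Cyp4a8. The first pair were nearly level, with a ratio of 1.07 (95% counting interval 1.01 to 1.14) in CD and 1.09 (1.02 to 1.17) in WD. Cyp4a1 stood 2.66-fold below the distal locus in CD and 4.48-fold below it in WD. The bounds that Cufflinks gives with its estimates were much wider than these intervals. For the distal Cyp4a2 locus in CD total RNA they ran from 0 to 2549 FPKM, and for Cyp4a1 from 9.51 to 796. Between the diets the bounds overlapped for each of the 4 loci in each kind of RNA.

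The counting intervals used here are exact binomial (Clopper-Pearson) for ratios of 2 libraries and conditional odds ratios for ribosome density. They cover counting error only, since reads amplified by PCR are not independent molecules and reads shared by similar genes add an error that they leave out. Fragment numbers were inferred from the values for Cyp4a8. For the other 3 loci they could not be inferred, and the largest FPKM per fragment among 7 loci of the CYP4 family, 0.777, was used. Loci were compared with the 10201 that carried a symbol and averaged 1 FPKM or more across the libraries. Where fragment numbers were inferred, these had a median of 8 to 22 fragments per library, so their spread includes much counting error. A percentile among them is therefore not one among abundant loci. Cyp4a8, with a mean of 0.769 FPKM, lay just outside that group, and Cyp4a1 at 280, the locus beside it at 1094 and the distal locus at 2191 lay far inside.

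In total RNA, the question was whether the WD altered the abundance of these mRNAs. Cyp4a1 was 0.507 of its CD level in WD (log2 change -0.98, counting interval of the ratio 0.448 to 0.572), and 9.04% of the loci compared had a lower value. The locus beside it was at 0.837 (0.784 to 0.894) and the distal Cyp4a2 locus at 0.851 (0.799 to 0.907), with 30.1% and 32.1% of the loci compared lower still. Cyp4a8 was at 0.523, with an interval from 0.0473 to 3.65. All 4 loci were therefore lower in WD. Those at or below 0.75 were 2, Cyp4a1 and Cyp4a8, of which Cyp4a8 rests on 4 and 2 fragments and is not among the loci compared. The limits of 0.75 and 1.5 are those that the study's methods set for ribosome density, and they were applied here to the other measures as well. Of all loci compared, 22.7% were at or below 0.75, 17.7% were at or above 1.5 and 47% were lower in WD, and the median log2 change was 0.022. Among the 647 loci that averaged 100 FPKM or more, 12.7% were at or below 0.75. In bulk liver, fewer cells expressing a gene and less of its RNA per cell cannot be told apart.

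For each of the 3 abundant loci, the ratio of WD to CD was lowest in the light fraction. Cyp4a1 was at 0.345 of the CD level (0.298 to 0.4) and the distal Cyp4a2 locus at 0.696 (0.653 to 0.741). The locus beside Cyp4a1 was at 0.218 (0.201 to 0.236), a 4.59-fold lower value, and 1.52% of the loci compared were lower still. Of the 4 CYP4A loci, 3 were at or below 0.75, beside 26.8% of all loci compared, and none was at or above 1.5, beside 25.9%. The WD light library stood apart in other ways: it had 2.34 times the inferred depth of the CD heavy library, where the others had 1 to 1.57 times, and the highest summed FPKM of loci with a symbol, 866676 against 616030 to 699570. Of 9 blood cell markers 6 were found, and their summed level was 254 FPKM there and 12.2 to 37.4 in the other libraries, with S100a8 and S100a9 at 0 throughout. Their part in the light fraction result was not tested. With loci lacking a symbol included, the order of the light libraries was the opposite, at 45262159 summed FPKM in CD and 28139957 in WD. Scaling to that sum was not done, so its effect on the ratios is not given. Libraries were scaled only to an equal sum of the loci with a symbol. The ratios were then 0.27 for Cyp4a1, 0.17 for the locus beside it and 0.544 for the distal locus. The median log2 change of all loci shifted by -0.31. Rescaling also changed the split of all calls in the light fraction, of which 49.1% were higher in WD as deposited and 28.2% after rescaling.

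In the heavy fraction, the ratios of WD to CD were closer to those of total RNA. Cyp4a1 was at 0.472 (0.408 to 0.546), the locus beside it at 0.739 (0.694 to 0.788) and the distal Cyp4a2 locus at 0.767 (0.74 to 0.796). Thus 2 of the 4 loci were at or below 0.75, beside 25.8% of all loci compared, and none was at or above 1.5, beside 21.7%. Over the loci of at least 100 FPKM, 12.2% were at or below 0.75 in the heavy fraction and 32.8% in the light fraction. For Cyp4a1, 10.2% of the loci compared had a lower value. Between the 3 abundant loci, Cyp4a1 had the lowest ratio in total RNA and in the heavy fraction, and the locus beside it the lowest in the light fraction.

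**Figure D2:**
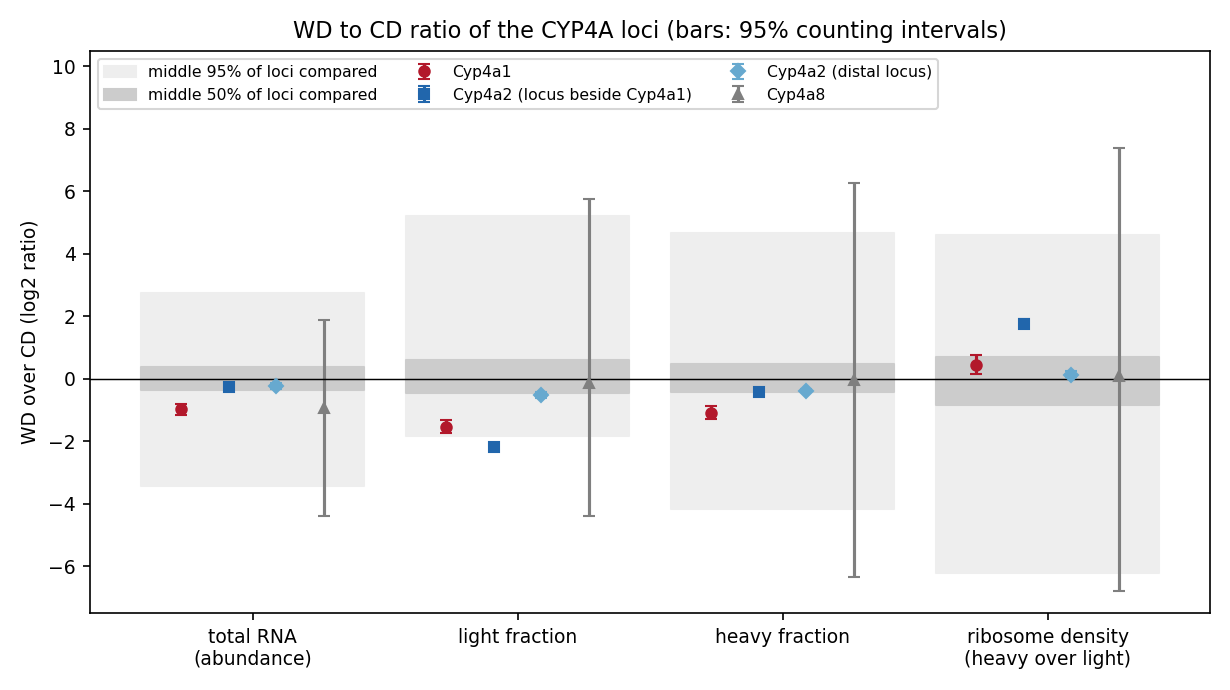
WD to CD ratio (log2) of each CYP4A locus for total RNA, the light fraction, the heavy fraction and ribosome density, with 95% counting intervals as bars and bands for the middle 50% and 95% of the 10201 loci compared. Only the locus beside Cyp4a1 leaves the middle 95% in a measure, at -2.20 in the light fraction, and the bars of Cyp4a8 span more than 6 log2 units. The bands include many loci with few fragments, and none was drawn for abundant loci alone.

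Ribosome density was taken as heavy over light FPKM within a diet, and its change as the density in WD over that in CD. Both use the same light and heavy libraries as the comparisons above, so they are not separate evidence. In CD, the distal Cyp4a2 locus had a density of 4.41 (4.17 to 4.65), above 93.5% of the loci compared, whereas Cyp4a1 was at 1.45 (1.28 to 1.64) and the locus beside it at 1.28 (1.2 to 1.36). In CD, the symbol Cyp4a2 thus covered a locus with a high ratio and one near the median of abundant loci. That median was 1.39 over the 647 with a mean of at least 100 FPKM. The ratios of these loci depend on how reads of similar copies were divided between them, which is not known. In WD, the distal locus was at 4.86 (4.63 to 5.1) and the locus beside Cyp4a1 at 4.33 (3.99 to 4.7), above 96.2% and 95.1% of loci. Cyp4a1 was at 1.98 (1.68 to 2.33) in WD, where abundant loci had a median of 1.62.

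The density of the locus beside Cyp4a1 was 3.39-fold higher in WD than in CD (log2 change 1.76, interval 3.06 to 3.76), a value above that of 91.2% of the loci compared. Cyp4a1 was 1.37-fold higher (1.11 to 1.69), and the distal Cyp4a2 locus was 1.1-fold higher (1.03 to 1.19). Of the 4 loci, 1 had a density ratio of at least 1.5, beside 27.7% of all loci compared, and none had a ratio of at most 0.75, beside 36.1%. Over the loci of at least 100 FPKM, those shares were 24.1% and 18.2%. The study's methods write the limits for CD over WD, and in that direction Cyp4a1, at 0.731, also passed, giving 2 loci beside 32.9% of all. The intervals of Cyp4a1 (0.825 to 2.29) and of the distal locus (0.924 to 1.31) both included 1 when 1 fragment was given the 95th percentile of FPKM per fragment over all loci, 4.37. Rescaling raised the ratios to 1.72 for Cyp4a1, 4.26 for the locus beside it and 1.39 for the distal locus, and raised the share of density calls that were higher in WD from 43.4% to 58.3%.

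The heavy fraction can also be set over total RNA, which leaves out the light libraries. The heavy fraction over total RNA was 1.75 in CD and 1.55 in WD at the locus beside Cyp4a1 (log2 change -0.18). For the distal Cyp4a2 locus the heavy over total ratio was 4.84 in CD and 4.36 in WD (-0.15), and for Cyp4a1 it was 1.11 and 1.04 (-0.10). By that measure the change had the opposite sign at each of the 3 abundant loci, none of which was higher in WD. The light fraction over total RNA of the locus beside Cyp4a1 went from 1.37 in CD to 0.357 in WD, whereas the distal locus went from 1.1 to 0.897 and Cyp4a1 from 0.769 to 0.524.

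**Figure D3:**
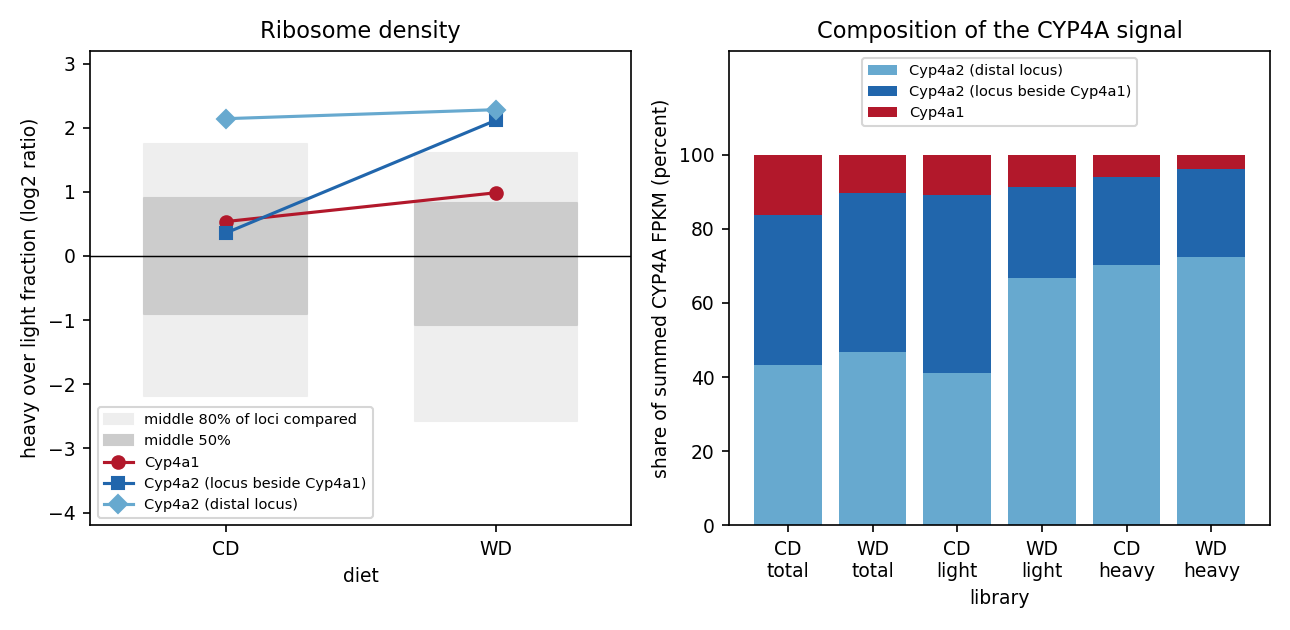
Left, heavy over light ratio (log2) of the 3 abundant CYP4A loci in CD and WD, with bands for the middle 50% and 80% of the loci compared. Right, share (percent) of the summed CYP4A FPKM held by each locus in each of the 6 libraries, where Cyp4a8 is too small to be seen. The locus beside Cyp4a1 moves from 0.35 to 2.11 while the distal locus stays between 2.14 and 2.28, and its share is 48% in the CD light fraction and 24.4% in the WD light fraction.

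The makeup of the CYP4A signal differed between the kinds of RNA. In CD total RNA, of 2478 FPKM summed over the 4 loci, the distal Cyp4a2 locus held 43.3%, the locus beside Cyp4a1 40.4% and Cyp4a1 16.2%. In the CD heavy fraction, of 7388 FPKM, they held 70.2%, 23.7% and 6.06%. The distal to beside ratio was 0.856 (0.801 to 0.915) in the CD light fraction, 2.73 (2.53 to 2.96) in the WD light fraction, 2.96 (2.82 to 3.1) in the CD heavy fraction and 3.07 (2.91 to 3.25) in the WD heavy fraction. The CD light and WD light libraries therefore ranked the Cyp4a2 loci in opposite orders. Since reads of similar copies can be divided between them, the loci were also summed. How alike their transcripts are was not measured. The summed Cyp4a2 signal was 0.844 of CD in total RNA, 0.438 in the light fraction and 0.76 in the heavy fraction, with a density ratio of 1.73. How the authors' counting divided reads that fit more than 1 copy is not given in the sources used here.

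The profile of each locus over the 6 libraries was compared with those of 4069 loci of at least 10 FPKM, as the mean absolute difference of centred log2 values. The profile closest to Cyp4a1 was that of Pdk4, the pyruvate dehydrogenase kinase that is induced by fasting, at a difference of 0.17, followed by Cyp2b1 at 0.21 and Foxo3 at 0.25. Pdk4 measured 36.3 FPKM in total RNA of CD and 19.3 in that of WD, 29.8 and 12 in the light fraction, and 49.1 and 28.4 in the heavy fraction. Closest to the locus beside Cyp4a1 were Cops4 at 0.20, the glycolytic gene Pgk1 at 0.22 and Nr2c2ap at 0.23. Pgk1 measured 231 FPKM in CD and 93 in WD in the light fraction, and 446 and 412 in the heavy fraction. Among the closest to the distal Cyp4a2 locus were Tmlhe and Psmb3, each at 0.17. The Cyp4a2 loci differed from each other by 0.77, and Cyp4a1 differed by 0.35 from the locus beside it and by 0.87 from the distal locus. These are descriptions over 6 libraries that share 1 scale.

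The genes around the CYP4A reaction were read in total RNA from lists set by pathway and family. A list of CYP4 symbols besides the members held 16, of which 5 were among the loci compared. Cyp4a3, Cyp4a10, Cyp4a12 and Cyp4a14 were on that list, but none of these symbols stood on a deposited locus. Of the 5 compared, all outside CYP4A, 4 were higher and 1 lower in WD, with a median log2 change of 0.16. Cyp4f1, a leukotriene and fatty acid hydroxylase, measured 192 FPKM in total RNA of CD and 201 in that of WD, and Cyp4f4 51.2 and 62.1. In the light fraction 4 of the 5 were lower, with a median of -0.66, where 47.2% of all loci were lower. For ribosome density 4 were higher, with a median of 1.05, where 50.7% of all loci were lower. Both measures use the same light libraries. Cyp4b1 rests on 3 to 6 fragments per library and Cyp4f39 on 6 to 25. Cyp4f4 had a density ratio of 2.81 (1.66 to 4.77), and Cyp4f1 one of 0.848 (0.626 to 1.15). Of the electron donors, 2 of 7 were higher and 5 lower, with a median of -0.17. Among these, Cyb5b was level at 28.3 FPKM on both diets and counted as lower by a difference beyond those digits. Por, the reductase that feeds microsomal P450s, measured 47.3 FPKM in CD and 24.5 in WD total RNA (ratio 0.518, 0.374 to 0.712), close to the ratio of Cyp4a1. Cyb5a, the cytochrome b5 that can pass a further electron, measured 360 and 460 FPKM (1.28, 1.07 to 1.53).

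Downstream of omega-hydroxylation, 4 of 9 genes of the oxidation to dicarboxylic acids were higher and 5 lower, with a median of -0.0074 that turned to 0.089 after rescaling. Aldh3a2, the fatty aldehyde dehydrogenase, measured 232 FPKM in CD and 202 in WD. Of 15 peroxisomal oxidation genes, 12 were lower in WD and 3 higher, with 5 at or below 0.75 and a median of -0.16, where 47% of all loci were lower and 22.7% at or below 0.75. Ehhadh, the bifunctional enzyme of dicarboxylic acid oxidation, measured 298 FPKM in CD and 179 in WD total RNA (0.601, 0.541 to 0.667). Crot, the carnitine octanoyltransferase, measured 181 and 258 FPKM.

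Ppara itself, the receptor behind the classical induction of CYP4A, measured 57.2 FPKM in total RNA of CD and 58.6 in that of WD. Its fraction values were lower in WD, at 71.2 and 38.8 in the light and 111 and 80.7 in the heavy fraction. Rxra, its partner, measured 60.3 and 58.4 in total RNA (0.969, 0.744 to 1.26). Its fraction values were higher in WD, at 65.2 and 95.6 in the light and 23.1 and 27.1 in the heavy fraction. In total RNA, 8 of 14 receptor and coregulator genes were higher and 6 lower, with a median of 0.049. Among 26 other known PPARα targets of liver, 21 were lower and 5 higher, 12 were at or below 0.75, and the median was -0.37, or -0.27 after rescaling, beside the same shares of 47% lower and 22.7% at or below 0.75 over all loci. That list shares members with the other lists, Acsl1, Ehhadh and Pex11a among them. Cpt1a, the mitochondrial fatty acid gate, measured 82 FPKM in CD and 59.6 in WD (0.727, 0.62 to 0.851). Plin2, a lipid droplet coat protein, had the highest abundance ratio of the targets above 10 FPKM, 1.14, at 157 and 179 FPKM. Fgf21 measured 55.5 and 27.9 FPKM in total RNA (0.503, 0.238 to 1.01). It measured 105 and 27.6 FPKM in the light fraction, and 129 and 126 in the heavy fraction. In the light fraction 13 of the 26 targets were higher and 13 lower, with a median of -0.043.

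**Figure D4:**
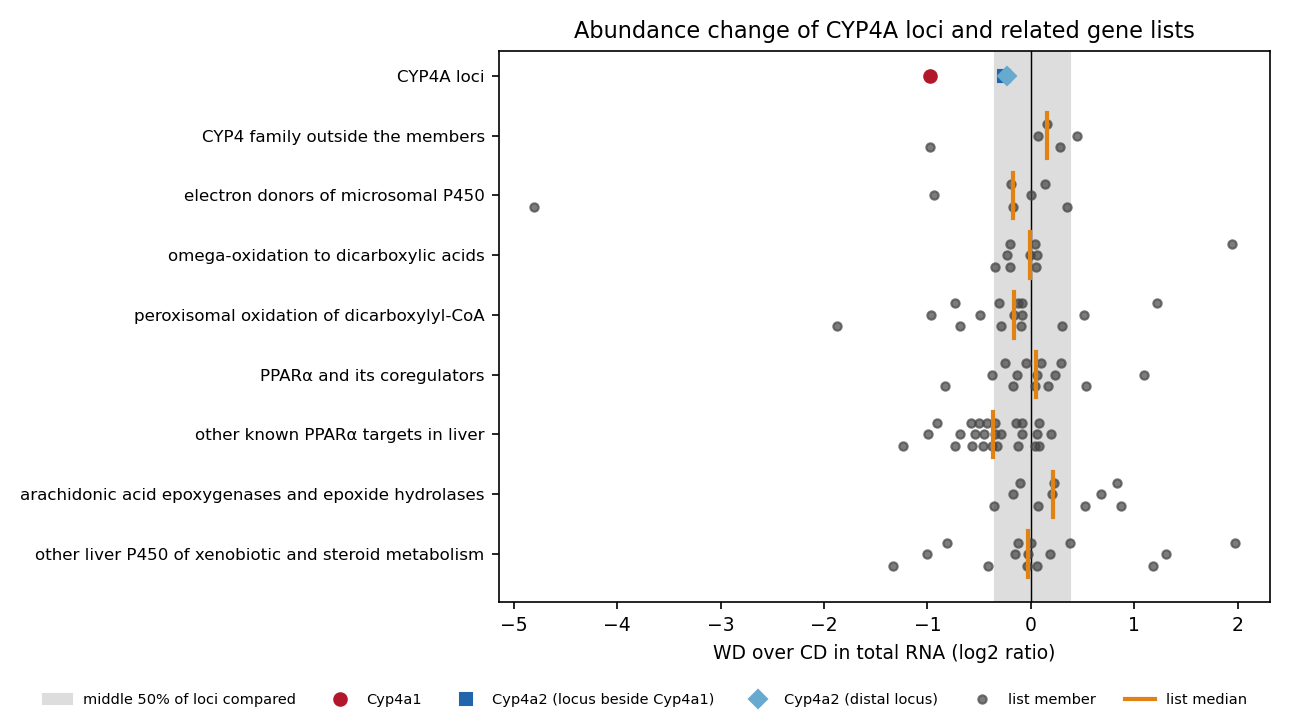
Abundance change (log2 of WD over CD total RNA) of the 3 abundant CYP4A loci and of each listed gene among the loci compared, with the list median as a bar and the middle 50% of all loci as a band. Cyp4a1 lies at -0.98 and the Cyp4a2 loci at -0.26 and -0.23, and the median of the other PPARα targets lies at -0.37.

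Other liver P450s were split in direction. Of 15 genes of xenobiotic and steroid metabolism, 7 were higher and 8 lower, with 3 at or above 1.5 and 3 at or below 0.75, beside 17.7% and 22.7% of all loci. Cyp2d5, at 14.5 FPKM on both diets, counted as higher by a difference beyond the digits given. Cyp3a2 measured 230 FPKM in total RNA of CD and 898 in that of WD, 362 and 2126 in the light fraction, and 515 and 1937 in the heavy fraction. Cyp2e1, the ethanol-inducible P450 that also hydroxylates fatty acids, measured 1357 and 1533 FPKM in total RNA. A further list held the Cyp2c and Cyp2j families and the epoxide hydrolases, some of which convert arachidonic acid by the route alternative to CYP4A. It was set by family, and not every member is an epoxygenase. Of its 10 genes compared, 7 were higher and 3 lower, with a median of 0.21, where 47% of all loci were lower. Cyp2c22 measured 767 and 1398 FPKM, and Ephx2, the soluble epoxide hydrolase, had a ratio of 0.781 (0.638 to 0.954).

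The labelled tissue was checked by its markers. All 8 hepatocyte markers were found, with a summed level between 46188 and 140175 FPKM. Kidney, the other tissue rich in CYP4A, summed to between 1.11 and 3.9 FPKM over 5 markers, with Slc34a1 and Umod at 0. Adipocyte markers summed to between 14.3 and 40.9 FPKM, with Adipoq, Lep and Plin1 at 0, and Kupffer cell and macrophage markers to between 95.5 and 200 FPKM.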

How the data were processed

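Libraries were depleted of ribosomal RNA. The authors used the Cufflinks pipeline (2.2.1), with TopHat for alignment to Rnor_6.0, and the deposited values are FPKM with lower and upper bounds, normalized between the 6 libraries by Cuffnorm. The methods also describe an alignment route for Riboseq reads, and whether the fraction reads took it is not certain. The annotation is not given in the sources used here. The authors' differential expression tools were not rerun, since 1 library per group gives no measure of the spread between rats.

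Ratios are WD over CD of the deposited FPKM values, and log2 changes were computed after adding 0.1 FPKM. Loci were compared if they carried a symbol, had an estimate that did not fail and averaged 1 FPKM or more. Fragment numbers were inferred as whole numbers that 1 step per locus and 1 factor per library explain. They were found for 10418 of 13283 loci (78.4%), with 207522 to 451610 fragments per library. The method was run on simulated loci built from the same step and factors. That run does not cover loci without inferred numbers, such as Cyp4a1 and the Cyp4a2 loci. Python 3.11.15, numpy 2.4.6, pandas 2.3.3, scipy 1.17.1 and matplotlib 3.10.9 were used. Gene lists and members were chosen with earlier results of these data known. Besides the CYP4A loci, the text names the highest and lowest changes of each list above 10 FPKM, 12 genes picked by name, and the 3 closest profiles of each locus, of which some are not reported here. Alternatives were other pseudocounts, filters, rescaling, centring, the heavy fraction over total RNA, and, added after the data were seen, summed Cyp4a2 loci, another weight per fragment and the inverse thresholds. RefSeq tables of GRCr8 gave names, order and promoters only.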

Additional observations from a re-analysis of the deposited data

How the results depend on the processing

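Of 112 alternative values of the CYP4A changes, 91 stayed within the counting interval and the others moved beyond it. In 3 of those others the sign turned, and the cause was not tested. The count of 91 cannot be read as stability. It includes every alternative for Cyp4a8, whose intervals between diets were 6.27 to 14.16 log2 units wide. The log2 density change of Cyp4a8 went from 0.072 to 0.83 with heavy over total RNA and still counted as within. At the 3 abundant loci the lowest level was 107 FPKM, so a pseudocount of 1 FPKM or none could hardly move a value. Libraries were also rescaled to an equal sum of the loci with a symbol. The log2 changes of the distal Cyp4a2 locus were then -0.14, -0.88 and 0.47 (abundance, light fraction, ribosome density). Its log2 WD heavy over light ratio was 2.59. The same values were -0.16, -2.55, 2.09 and 2.42 for the locus beside Cyp4a1. For Cyp4a1 they were -1.89, 0.78 and 1.29 (light fraction, density, WD heavy over light). For heavy over total RNA, the change was -0.15 at the distal locus, -0.18 at the locus beside Cyp4a1 and -0.10 at Cyp4a1, so the sign turned at each of the 3. With both Cyp4a2 loci summed, chosen after the data were seen, the log2 values were -1.19 for the light fraction, 0.79 for density, and 1.44 and 2.24 for heavy over light in CD and WD. With a mean of at least 10 FPKM, the share of loci at or above 1.5 was 8.77% for abundance, 17.1% for the light fraction and 13.3% for the heavy fraction, and after rescaling 44.1% of loci were at or below 0.75 in the light fraction. Thresholds applied to CD over WD were also added later. By these, 1 CYP4A locus was lower in WD in the heavy fraction, beside 20.6% of all loci compared. In density 2 were higher, beside 32.9%, and 2 rather than 3 were lower in the light fraction, beside 20.6%. Of the list medians, 116 kept their sign under an alternative and 12 did not. No paired analysis was possible because each group has 1 library, and for the same reason no replicate could be left out. Depth limits Cyp4a8 in particular.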
